A study of Mus musculus with 10 samples.

Results

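Expression of the semaphorin, plexin, ephrin, Eph, netrin, Slit, Robo and Unc5 genes was measured in the infrarenal aorta of male C57BL/6J mice, aged 10 weeks, at day 7 of the elastase aneurysm model. For the PPE group the aortic segment was infused for 5 min at 100 mmHg with porcine pancreatic elastase (1.5 U per mL), a digestive enzyme that breaks down the elastic fibres of the wall and is followed by an aneurysm. Sham mice received saline in the same operation. Each group held 5 aortas, 1 per array, with the aorta labelled red and a common reference, RNA pooled from mouse cell lines, labelled green, so every value below is a log2 ratio of aorta over reference and every fold change is PPE against sham. The genes were chosen by their symbols alone (Sema3 to Sema7, Plxn, Efn, Eph, Ntn, Slit, Robo and Unc5 followed by the member's letter or number), which gave 65 of the 35527 gene names on the array, read by 92 of 55681 probes. The model is a whole, mixed tissue at 1 time point, and fewer cells of a type and less RNA per cell cannot be told apart in it.

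These families are named for steering growing nerve fibres, and the same proteins act on vessels and on immune cells. Semaphorins are secreted or membrane-bound ligands of the plexins; the secreted class 3 members usually need a neuropilin as co-receptor, while the class 4, 6 and 7 members bind plexins directly. Ephrins are membrane-anchored ligands of the Eph receptor tyrosine kinases and signal between touching cells. Netrins bind Dcc, neogenin and the Unc5 receptors, and Slits bind the Robo receptors. In vessels they are known for patterning the endothelium (Sema3e with Plxnd1, Efnb2 with Ephb4, Unc5b), and several of them, such as Sema4d, Sema4a, Sema7a and Slit2, are known from leukocytes or from the control of leukocyte movement.

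The arrays saw these genes through probes of 60 bases. The first 30 bases are given, 5′ to 3′, for the genes at both ends of the range of fold changes and for genes whose probes gave unlike values; nothing in them is marked by capitals, and positions are those of the whole probe on mm9, as the scanner files give them.
Sema4d, chr13:51796617-51796676, minus strand: tttctacttggaactgtacacatttgaaaa
Sema7a, chr9:57810607-57810666, plus strand: tcccttatctcttctcaatgcactttaata
Sema5a, chr15:32626025-32626084, plus strand: gttttgtgtaaatagtttgccttgttcagt
Sema3c, chr5:17235981-17236040, plus strand: ccctgtgtagagaaagcaaactagatgtag
Sema3c, chr5:17234078-17234137, plus strand: acgtaaagtcaagagtgactcataaagagc
Plxnc1, chr10:94253879-94253938, minus strand: ggatcccattagccaaatgcacagaatgtc
Plxnc1, chr10:94257387-94257446, minus strand: atgccaaggatataccaacctacaaagagg
Ntn1, chr11:68022986-68023045, minus strand: atgaatatatttaatgacatggagaaagtt
Ntn1, chr11:68040053-68040112, minus strand: actgtgattcctattgcaaggcctccaaag
For Sema3c, Plxnc1 and Ntn1 the first of the pair is the brighter probe and the one that stands for the gene.

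Of the 65 genes, 60 could be tested, and 24 of these passed an adjusted p under 0.01 (limma, adjusted over all 22520 gene names tested). In all, 13 were higher in PPE aortas (21.7% of those tested, against 13.9% of all genes) and 11 were lower (18.3%, against 9.96% of all genes). The median log2 fold change was 0.093, beside 0.021 for all genes, and was -0.0136 when PPE 5 was left out. Under the scanner software's own background subtraction and dye correction the split was 10 higher and 15 lower. The lower calls rose over the whole array too: all genes gave 3164 higher and 3089 lower, against 3122 and 2244 before. Ephb1, Plxnb3, Plxnc1 and Robo1 then did not pass (adjusted p of 0.218, 0.0407, 0.0232 and 0.0683 by limma). Sema3b, Efnb2, Ntn4 and Unc5c passed as lower and Epha2 as higher (0.00243, 0.0061, 0.000592, 0.000403 and 0.00408). When arrays were only centred on their median, with no loess, the median of all genes moved to 0.41, and Sema4d alone passed. At an unadjusted p under 0.05 by limma, 16 of the 60 genes were higher and 4 lower. Calls were lost over the whole array: of all 22520 gene names, 408 were higher and 8 lower, against 3122 and 2244 with loess. Relative to the all-gene median of 0.41 all 24 genes kept the sign given below. The 5 PPE and the 5 sham values did not overlap for 24 of the 60 genes, against 25.5% of all genes. Ligands supplied 7 of the higher and 7 of the lower genes and receptors 6 and 4.

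**Figure D1:**
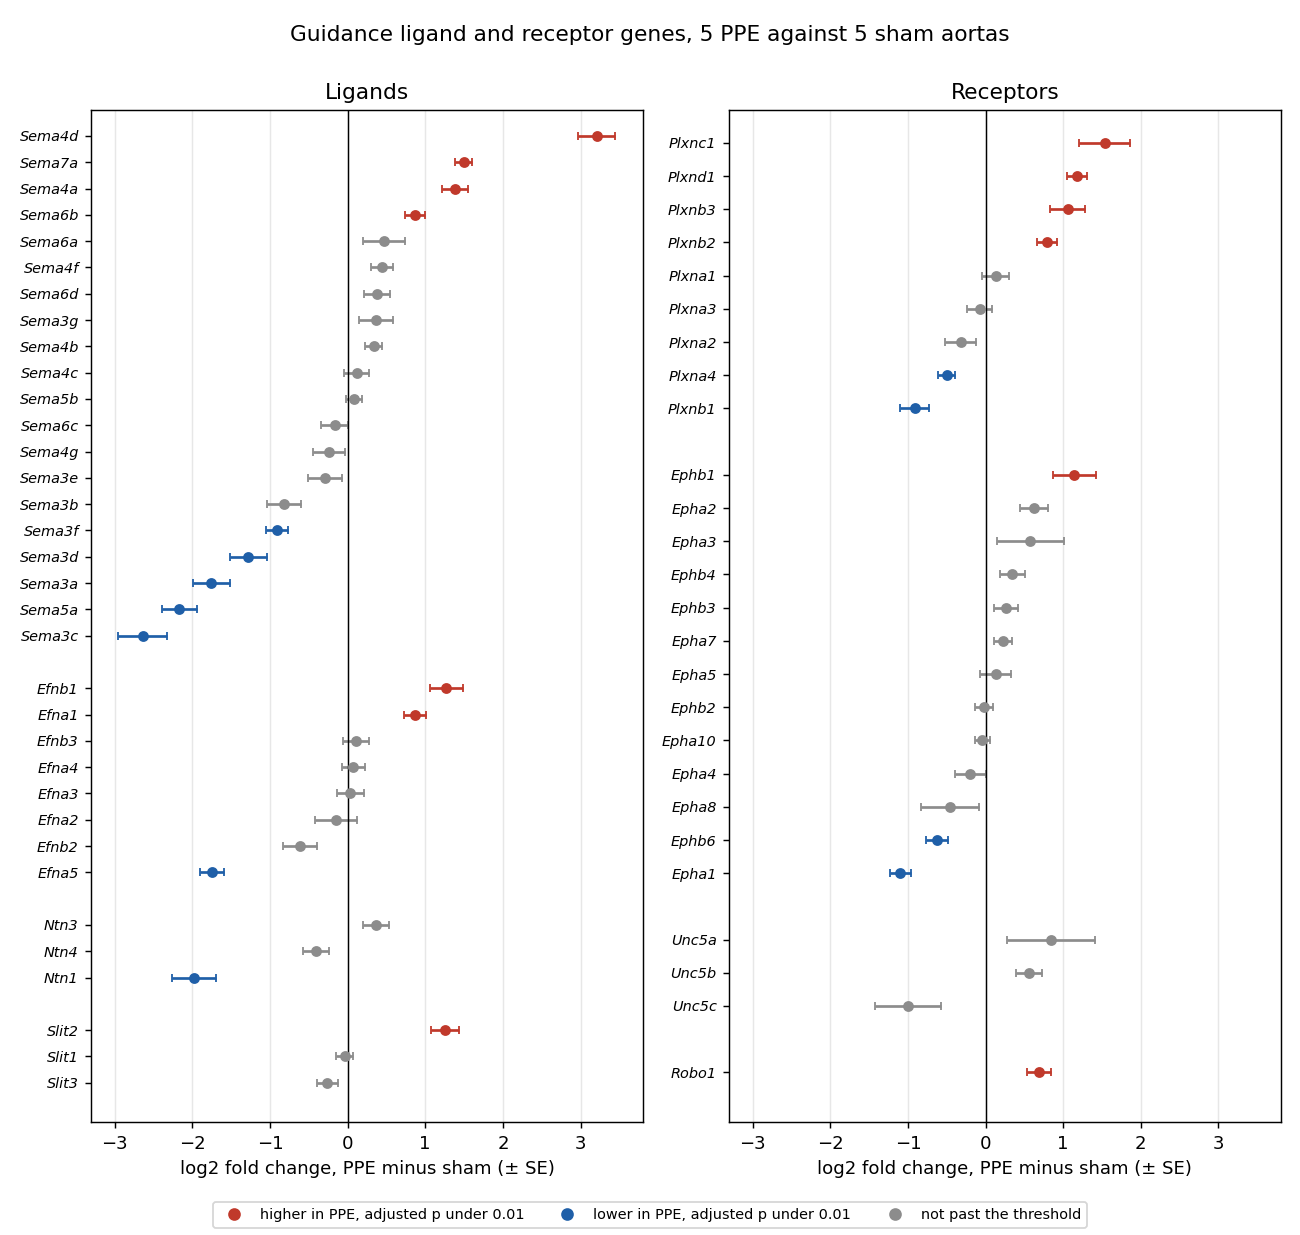
Log2 fold change of PPE over sham (horizontal axis, mean difference ± SE of the limma fit, 5 arrays a group) for the 34 ligand genes and 26 receptor genes tested, grouped by family. Sema4d lies farthest to the right at 3.21 and Sema3c farthest to the left at -2.64, and 4 class 3 semaphorins and Sema5a are the semaphorins marked as lower.

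The 5 genes left out of the test were the receptors Epha6, Robo2, Robo3 and Unc5d and the ligand Ntn5. The probes for Epha6 and Unc5d were above background on none of the 10 arrays. That of Ntn5 was above background on 0 sham and 2 PPE arrays, and the brightest probes of Robo2 and Robo3 on 0 and 1, and on 1 and 3. No value is given for these genes.

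The labelled tissue and its other cells were read from lists of marker genes. All 8 smooth muscle and all 8 endothelial markers were measured. The mean log2 ratio of the smooth muscle markers lay between 3.23 and 4.22 in sham and between 1.71 and 2.87 in PPE aortas, and 6 of the 8 were lower. All 8 macrophage markers were higher (means of 0.41 to 0.93 in sham, 2.77 to 3.85 in PPE), as were 6 of 7 neutrophil markers (0.55 to 0.67, then 3.04 to 4.38). Of these 6, Mmp8 was above background on 0 sham and 5 PPE arrays and Cxcr2 on 1 and 5. Mmp8 entered the test only through the group in which it was high, so its call is not given as support. Also higher were 5 of 8 T cell markers (-1.004 to 0.19, then 0.85 to 1.96) and 4 of 8 fibroblast markers (3.02 to 3.62, then 3.63 to 4.68). Lower were 2 of 8 adipocyte markers (4.30 to 5.39, then 3.37 to 4.77) and higher was 1 of 10 nerve and Schwann cell markers (0.86 to 3.16, then 2.07 to 3.44). None of the 8 endothelial (2.58 to 3.66, then 2.66 to 3.83), 5 B cell (-0.30 to 1.32, then -0.48 to 2.14) or 7 skeletal muscle markers (1.22 to 4.35, then 0.85 to 4.22) passed the limma test, with 1, 0 and 0 of them at an unadjusted p under 0.05. Every marker named on the array, tested or not, was above background on at least 1 array. The share of spots above background in the red channel ran from 37.6% on sham 5 to 65.8% on PPE 1.

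Of the 20 semaphorins, 4 were higher in PPE aortas (20%, against 13.9% of all genes) and 5 were lower (25%, against 9.96%). The 4 higher ones were membrane-bound. Sema4d (CD100), a transmembrane semaphorin known from T cells and other leukocytes, read -1.28, -1.58, -0.66, -1.37 and -1.26 on the sham arrays 1 to 5 and 2.68, 1.82, 1.86, 2.20 and 1.33 on the PPE arrays 1 to 5. Every sham aorta lay below the reference and every PPE aorta above it. The log2 fold change of 3.21 ± 0.24 (SE, n = 5 per group), or 9.24-fold, had an adjusted p of 2.71e-06 by limma and passed under every alternative that gave a test. Sema7a, which is held in the membrane by a lipid anchor and binds Plxnc1 and an integrin, went from -0.060, -0.23, -0.022, -0.18 and -0.34 to 1.32, 1.08, 1.46, 1.37 and 1.42. Its 2 groups were tight, with SDs of 0.13 and 0.15, and far apart, and the log2 fold change was 1.49 ± 0.11 (adjusted p 2.19e-06 by limma).

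Sema4a, a class 4 semaphorin known from dendritic cells and T cell help, read 1.19, 0.91, 0.91, 1.002 and 1.27 in sham and 2.94, 2.40, 2.02, 2.18 and 2.65 in PPE aortas. The groups did not overlap, and the log2 fold change was 1.38 ± 0.17 (adjusted p 8.41e-05 by limma). Sema6b, a transmembrane ligand of the A-type plexins, read 0.16, -0.18, 0.093, 0.082 and -0.28 and then 0.98, 0.82, 0.70, 1.05 and 0.67. It too was higher on all 5 PPE arrays than on any sham array, by 0.87 ± 0.12 (adjusted p 0.000241 by limma). The macrophage, neutrophil and T cell markers given above were higher on the same 5 arrays, and their part in these 4 differences was not tested.

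The other class 4 and class 6 genes did not pass. Sema4b (0.34, adjusted p 0.0311) and Sema4f (0.44, adjusted p 0.0327) came closest, and the PPE values of Sema4b, from 0.18 to 0.44, all lay above its highest sham value of 0.17. Sema4f passed without sham 3 (0.55, adjusted p 0.0083). Sema4c read 1.999, 2.10, 1.77, 1.998 and 2.26 and then 1.94, 1.85, 2.08, 2.17 and 2.68, and Sema6a 1.71, 0.84, 0.76, 1.25 and 0.27 and then 1.79, 2.02, 1.08, 1.15 and 1.14. For both the groups overlapped, with log2 fold changes of 0.12 ± 0.16 and 0.47 ± 0.27. Sema4g (-0.24), Sema6c (-0.16) and Sema6d (0.38) had adjusted p between 0.11 and 0.517.

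The secreted class 3 semaphorins went the other way: 4 of 7 were lower (9.96% of all genes were) and none of the other 3 passed. Sema3c, a class 3 ligand with roles in the outflow tract of the heart, read 1.72, 2.18, 1.16, 1.57 and 2.04 in sham and -1.12, -0.39, -1.33, -1.70 and 0.009 in PPE aortas. Sham aortas were above the reference throughout, and 4 of the 5 PPE aortas were below it. The log2 fold change was -2.64 ± 0.31, or 6.23-fold lower (adjusted p 6.19e-05 by limma), and its dimmer probe gave -1.76 ± 0.15. Sema3a, the founding collapsin that repels axons and endothelial cells, read -1.55, -1.38, -1.65, -1.58 and -1.26 and then -3.94, -3.41, -2.83, -3.51 and -2.50. It was below the reference in both groups and lower in all PPE aortas, by a log2 difference of -1.75 ± 0.24 (adjusted p 0.000154 by limma). Its dimmer probe, above background on 4 sham and 2 PPE arrays, gave -0.90 ± 0.31 and an adjusted p of 0.0412 over all probes.

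Sema3d read 2.72, 2.81, 1.74, 2.73 and 2.07 in sham and 1.54, 1.51, 0.81, 0.89 and 0.91 in PPE aortas, a log2 fold change of -1.28 ± 0.24 (adjusted p 0.00144). Sema3f, which acts through Nrp2 and A-type plexins, read 1.53, 1.56, 1.06, 1.56 and 1.28 and then 0.32, 0.52, 0.38, 0.33 and 0.86, a log2 fold change of -0.91 ± 0.14 (adjusted p 0.000438). Neither gene's groups overlapped, though the gap between the lowest sham and the highest PPE value of each was 0.20. Sema3b (-0.82, adjusted p 0.012) lay just outside the threshold, with PPE 2 at 1.97 inside the sham range. It passed without PPE 2 (-1.01, adjusted p 0.000914) and, besides the setting above, with no background subtraction, with signal required on all 10 arrays and with the scan day as a block. Sema3e, the direct ligand of Plxnd1, read -1.05, -0.75, -0.42, -0.95 and -0.65 and then -1.74, -1.28, -0.97, -0.76 and -0.52, with overlapping groups and a log2 fold change of -0.29 ± 0.22. Sema3g was at 0.36 ± 0.22 (adjusted p 0.238).

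Sema5a, a transmembrane semaphorin with thrombospondin repeats, fell with them. It read 2.69, 2.68, 1.98, 2.18 and 2.01 in sham and -0.060, 0.91, -0.078, 0.017 and -0.094 in PPE aortas. On 4 PPE arrays it stood at the level of the reference, and PPE 2 stood above it, still short of every sham aorta. The log2 fold change was -2.17 ± 0.22 (adjusted p 2.38e-05 by limma). PPE 2 was also the PPE array with the highest mean of the smooth muscle markers, 2.87 against 1.71 to 1.91 on the other 4. This array was likewise the highest PPE array for the endothelial, fibroblast, adipocyte, T cell, B cell, nerve and skeletal muscle markers. For the macrophage and neutrophil markers it was not. Sema5b, at 0.078 ± 0.10, did not pass. The smooth muscle markers were lower on the arrays on which these semaphorins were lower, and their part was not tested.

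**Figure D2:**
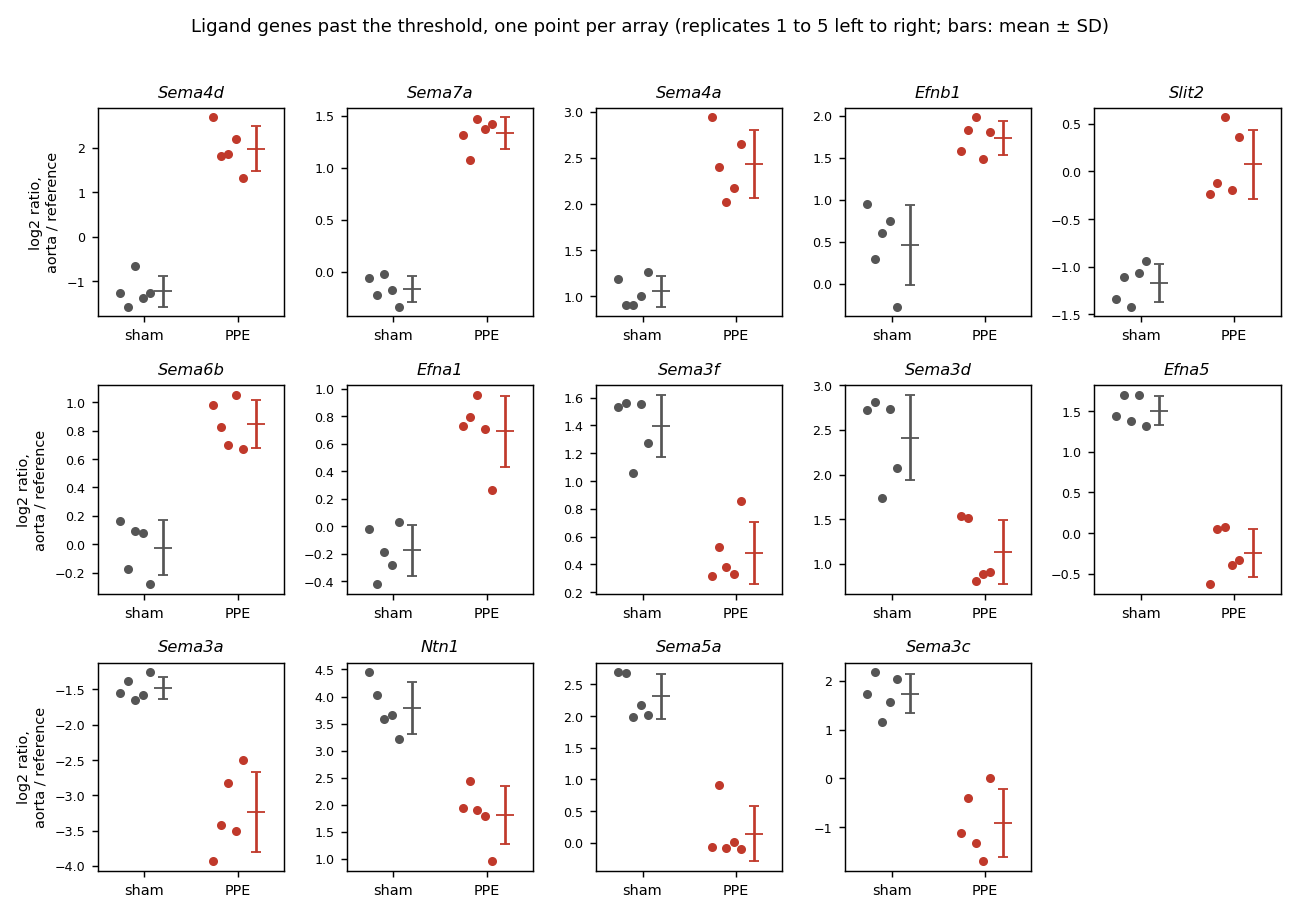
Log2 ratio of aorta over reference (vertical axis, its own range in each panel) on each of the 5 sham (grey) and 5 PPE (red) arrays for the 14 ligand genes that passed, with mean ± SD beside the points. No panel has overlapping groups, and in Sema5a the point of PPE 2, at 0.91, stands apart from the other 4.

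Of the 9 plexins, 4 were higher (44.4%, against 13.9% of all genes) and 2 were lower (22.2%, against 9.96%). Plxnc1, the receptor of Sema7a, read 0.15, -0.35, 1.48, 0.28 and -0.36 in sham and 2.20, 1.84, 1.85, 1.85 and 1.13 in PPE aortas. Sham 3, at 1.48, lay above PPE 5, at 1.13, so the groups overlapped by these 2 arrays. The log2 fold change of 1.53 ± 0.33 had an adjusted p of 0.00346, which became 0.0107 without sham 2 and 0.0103 without PPE 1. Its second probe was above background on 0 of 5 sham and 5 of 5 PPE arrays, and was at least 1.54-fold higher in PPE aortas, a bound that takes the lowest signal among probes above background for the sham arrays. This probe entered the test only through the group in which it was high, so its p is not given as support.

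Plxnd1, the receptor of Sema3e and Sema4a and known from endothelium and macrophages, read 0.64, 0.44, 0.57, 0.67 and 0.45 and then 1.64, 1.49, 1.91, 1.53 and 2.08. The groups were apart by more than the range within either of them, with a log2 fold change of 1.17 ± 0.13 (adjusted p 4.06e-05 by limma) and 0.999 ± 0.12 on the second probe. Plxnb2, a receptor of class 4 semaphorins, read -0.70, -0.39, -0.84, -0.42 and -0.61 and then 0.12, -0.054, 0.28, 0.17 and 0.48. Its lowest PPE value, -0.054, was above its highest sham value, -0.39, and the log2 fold change was 0.79 ± 0.13 (adjusted p 0.000603 by limma). Plxnb3, the receptor of Sema5a, read 1.08, 0.30, 0.75, 0.50 and -0.18 and then 1.86, 1.84, 1.37, 1.55 and 1.12. Its groups were apart by the narrow gap between sham 1 and PPE 5, the log2 fold change was 1.06 ± 0.23 (adjusted p 0.00358), and the adjusted p was 0.0115 without sham 2 and 0.0107 without PPE 1. The macrophage, neutrophil and T cell markers were higher on the 5 PPE arrays here too, and their part was not tested.

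Plxnb1, the classical receptor of Sema4d, was the one B-type plexin that was lower. It read 1.17, 1.03, 0.44, 0.79 and 0.54 in sham and -0.30, 0.35, 0.040, -0.30 and -0.38 in PPE aortas. The groups did not overlap, with a gap of less than 0.1 between sham 3 and PPE 2. The log2 fold change was -0.91 ± 0.18 (adjusted p 0.00224). With the slide as a block, a fit that compared arrays only within slides 1 and 2, the adjusted p was 0.0102. Plxna4, a receptor of Sema3a and Sema6b, read 1.42, 1.19, 1.09, 1.43 and 1.07 and then 0.64, 0.82, 0.67, 0.69 and 0.88. The groups did not overlap, and the log2 fold change was -0.50 ± 0.11 (adjusted p 0.00399). When arrays were only centred on their median it became 0.13, beside a median of 0.41 for all genes. Leaving out sham 1, sham 4, PPE 1, PPE 3 or PPE 4 ended this call, at an adjusted p of at most 0.0127.

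The other 3 A-type plexins did not pass. Plxna1, a receptor shared by Sema3a and Sema6d, read -0.32, -0.43, -0.47, -0.29 and 0.12 and then -0.37, -0.051, -0.31, -0.43 and 0.42. Plxna2, which takes Sema3a, Sema3c and Sema6a, read 2.06, 1.96, 1.23, 1.48 and 1.54 and then 1.13, 1.86, 1.45, 1.27 and 0.95. Plxna3, the receptor of Sema3f, read -1.41, -1.61, -0.91, -1.46 and -1.68 and then -1.78, -1.38, -1.23, -1.51 and -1.54. All 3 pairs of groups overlapped, with log2 fold changes of 0.13 ± 0.18, -0.32 ± 0.20 and -0.073 ± 0.16.

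Of the semaphorin receptors outside the plexins, 9 of a list of 10 could be tested, and 2 were higher and 1 lower. Over all genes tested, 13.9% were higher and 9.96% lower, and the counts of these short lists were not tested against that. Cd72, a second receptor of Sema4d known from B cells, was higher by 3.55 ± 0.29 (adjusted p 4.13e-06), and Nrp2, the co-receptor of Sema3f and Sema3c, by 1.75 ± 0.22 (adjusted p 9.87e-05). Cspg4, a proteoglycan of pericytes and smooth muscle cells, was lower by 2.22 on the log2 scale (log2 fold change -2.22 ± 0.35, adjusted p 0.000445). The median of the list was -0.095. Among 17 plexin and semaphorin effectors tested, 3 were higher and 4 lower. The higher ones were the kinase Fes (1.41), the small GTPase Rnd1 (1.01) and the exchange factor Farp1 (0.64). The lower ones were Rras (-1.39), the GTPase that plexins switch off, the exchange factor Arhgef12 (-1.22), which binds B-type plexins, and the actin oxidases Mical3 (-0.89) and Mical2 (-0.86). The median of this list was -0.12.

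Set ligand beside receptor, semaphorins and plexins passed in the same direction in some pairs and in opposite directions in others. Sema7a and Plxnc1 were both higher, by 1.49 and 1.53. Sema4a was higher together with Plxnd1 (1.38 and 1.17) and with Plxnb2 (0.79). Sema4d, at 3.21, stood beside a lower Plxnb1 (-0.91) and a higher Plxnb2 (0.79). Sema3c (-2.64) and Sema5a (-2.17) were lower while their receptors Plxnd1 (1.17) and Plxnb3 (1.06) were higher. Sema3a was lower beside Plxna4 (-1.75 and -0.50) and Sema6b higher (0.87). When arrays were centred on their median, Plxna4 was at 0.13, beside a median of 0.41 for all genes.

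**Figure D3:**
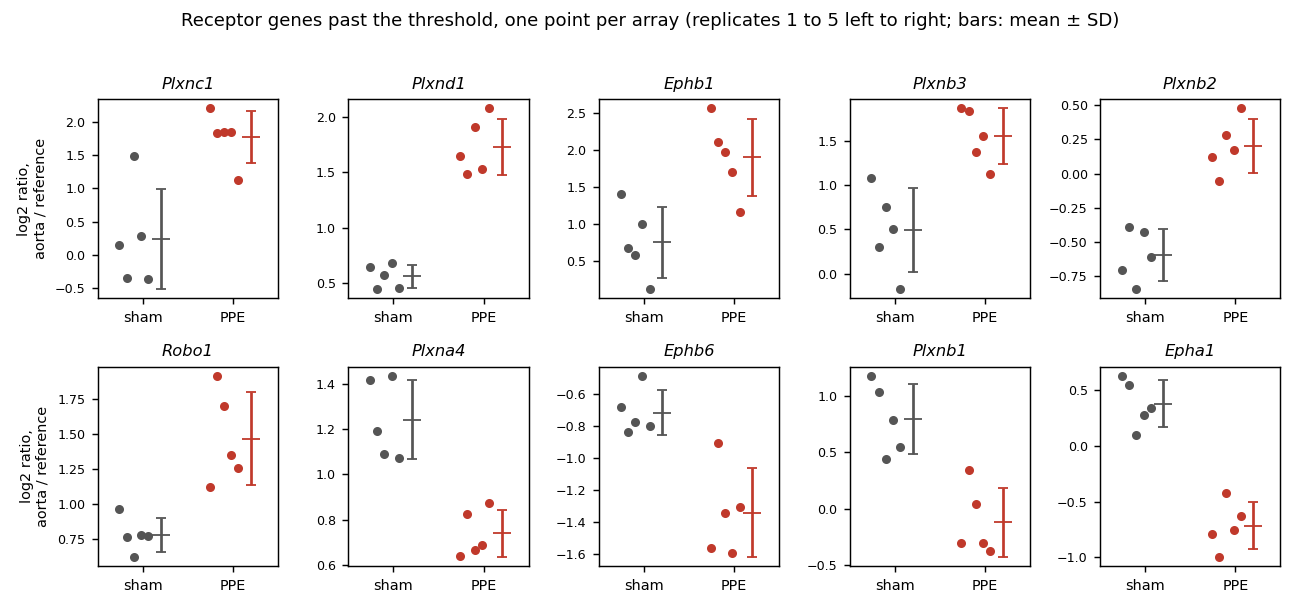
Log2 ratio of aorta over reference (vertical axis, its own range in each panel) on each of the 5 sham (grey) and 5 PPE (red) arrays for the 10 receptor genes that passed, with mean ± SD beside the points. The groups are apart in all panels but those of Plxnc1 and Ephb1. Plxna4, lower here by 0.50, was at 0.13 under median centring, beside a median of 0.41 for all genes.

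Among the 8 ephrins, Efnb1 and Efna1 were higher (25%, against 13.9% of all genes) and Efna5 was lower (12.5%, against 9.96%). Efnb1, a transmembrane ephrin, read 0.94, 0.30, 0.60, 0.75 and -0.28 in sham and 1.58, 1.83, 1.98, 1.48 and 1.81 in PPE aortas. Every PPE aorta was higher than every sham aorta, with a log2 fold change of 1.27 ± 0.21 (adjusted p 0.00062 by limma). Efna1, a lipid-anchored ephrin first described as induced by tumour necrosis factor in endothelium, read -0.024, -0.42, -0.19, -0.28 and 0.030 and then 0.73, 0.79, 0.96, 0.71 and 0.26. The groups did not overlap, with PPE 5 the lowest of the PPE aortas, and the log2 fold change was 0.87 ± 0.14 (adjusted p 0.000634 by limma). Efna5, also lipid-anchored, read 1.44, 1.70, 1.37, 1.70 and 1.32 and then -0.63, 0.046, 0.074, -0.39 and -0.32. It was above the reference in all sham aortas and near or below its level in PPE aortas, with a log2 fold change of -1.75 ± 0.15, or 3.36-fold lower (adjusted p 7.26e-06 by limma).

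Efnb2, the ephrin of arterial endothelium and smooth muscle, had a log2 fold change of -0.61 ± 0.22 and did not pass (adjusted p 0.0515), except on the processed signals of the scanner software (-0.73). Efnb3 (0.11), Efna4 (0.073), Efna3 (0.035) and Efna2 (-0.15) had adjusted p of 0.677 or more. The smooth muscle and leukocyte markers moved on the same arrays as the 3 ephrins that passed, and their part was not tested.

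Of the 13 Eph receptors tested, 1 was higher (7.69%, against 13.9% of all genes) and 2 were lower (15.4%, against 9.96%). Ephb1 read 1.40, 0.68, 0.58, 1.01 and 0.13 in sham and 2.56, 2.11, 1.98, 1.70 and 1.16 in PPE aortas. Sham 1 (1.40) lay above PPE 5 (1.16), so the groups overlapped, and the log2 fold change of 1.14 ± 0.28 (adjusted p 0.00718) passed without sham 1 or without PPE 5 but not when any of the other 8 arrays was left out, where the adjusted p reached 0.019. Epha1 read 0.63, 0.55, 0.10, 0.28 and 0.34 and then -0.79, -0.99, -0.42, -0.75 and -0.63. Its sham aortas were all above the reference and its PPE aortas all below, by a log2 fold change of -1.10 ± 0.14 (adjusted p 9.35e-05 by limma). Ephb6, a family member whose kinase domain is inactive, read -0.68, -0.84, -0.77, -0.49 and -0.80 and then -1.56, -0.90, -1.34, -1.59 and -1.30. The groups were apart by less than 0.1, between sham 2 and PPE 2. The log2 fold change of -0.63 ± 0.14 (adjusted p 0.0047) did not pass without sham 1, sham 4, PPE 1, PPE 3 or PPE 4 (adjusted p of at most 0.0144), and its dimmer probe gave -0.066 ± 0.16.

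The Eph receptors listed as partners of the changed ephrins stayed short of the threshold. Epha2, the main receptor of Efna1, read -2.44, -2.04, -1.96, -2.35 and -1.88 and then -1.94, -1.74, -1.36, -1.52 and -0.99. It was at 0.62 ± 0.18 with an adjusted p of 0.0203 by limma. It passed without PPE 1 (0.73, adjusted p 0.00958). Separately, it passed with the slide, the scan day or the replicate number as a block, and on the processed signals of the scanner software. Epha4, a receptor that takes ephrins of both types, read 1.49, 1, 1.08, 1.22 and 0.45 and then 1.10, 0.86, 0.91, 1.06 and 0.34. Epha3, a receptor of Efna5, read 4.48, 3.93, 2.49, 4.26 and 3.07 and then 4.80, 5.02, 4.38, 3.32 and 3.60. The groups of both overlapped, with log2 fold changes of -0.19 ± 0.20 and 0.58 ± 0.43. Ephb2, a receptor of Efnb1 that also takes Efna5, read 0.15, -0.032, -0.099, 0.30 and 0.099 and then 0.30, 0.093, -0.066, -0.12 and 0.12. Ephb3, a second receptor of Efnb1, read 1.56, 1.66, 1.51, 1.66 and 1.68 and then 1.65, 1.53, 1.89, 1.86 and 2.45. They were at -0.018 ± 0.12 and 0.26 ± 0.16. Ephb4, the venous partner of Efnb2, was at 0.35 ± 0.16 (adjusted p 0.114), and Epha5, Epha7, Epha8 and Epha10 lay between -0.46 and 0.23. So Efnb1, Efna1 and Efna5 passed with none of their listed Eph receptors passing beside them. The pair list left out the Eph receptors that passed, Ephb1, Epha1 and Ephb6. It thus cannot tell whether these ephrins had a changed receptor. Whether ligand and receptor changes differed was not tested.

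Of the 3 netrins tested, 1 was lower (33.3%, against 9.96% of all genes) and none was higher. Ntn1 read 4.45, 4.03, 3.59, 3.65 and 3.21 in sham and 1.93, 2.44, 1.91, 1.80 and 0.95 in PPE aortas. All 10 aortas were above the reference, and the PPE aortas were lower without overlap, by a log2 fold change of -1.98 ± 0.28, or 3.94-fold (adjusted p 0.00022 by limma). The second probe, above background on 4 sham arrays and 1 PPE array, gave -0.75 ± 0.22, with an adjusted p of 0.0206 over all probes. Ntn3 (0.36 ± 0.17) and Ntn4 (-0.41 ± 0.17) did not pass, though Ntn4 did on the processed signals of the scanner software (-1.41). The smooth muscle markers were lower on the same arrays as Ntn1, and their part was not tested.

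None of the 3 Unc5 receptors tested passed, with 2 of them at an unadjusted p under 0.05 in limma. Unc5b, known from endothelium and macrophages, read -0.98, -0.75, -1.30, -0.99 and -0.82 and then -0.72, -0.44, 0.092, -0.66 and -0.28. The PPE values were all above the sham values, if narrowly, and the log2 fold change was 0.56 ± 0.17 (adjusted p 0.0212). Unc5c read 3.88, 3.31, 3.03, 3.66 and 1.82 and then 2.80, 2.79, 2.11, 2.08 and 0.93, and Unc5a 4.31, 2.69, 4.02, 3.24 and 1.12 and then 4.72, 4.28, 3.60, 4.30 and 2.73. Both spread widely, with sham 5 far below the other sham aortas, and were at -0.999 ± 0.43 and 0.85 ± 0.57. The call of Unc5c depended on the fit. It passed as lower with the slide as a block (-1.08, adjusted p 0.00034 by limma). That fit compared arrays only within slides 1 and 2, so sham 5 had no weight in it. Unc5c also passed with the replicate number as a block (adjusted p 0.00182) and on the processed signals of the scanner software (-1.66). Without sham 5 and PPE 5 together it passed as well (-1.03, adjusted p 0.00705). Sham 5 was also the array with the lowest mean of the nerve and Schwann cell markers, 0.86 against 2.03 to 3.16 on the other 4 sham arrays. It had the lowest shares of spots above background of all arrays as well, 37.6% in red and 46.5% in green. The part of either in these values was not tested.

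Slit2 and its receptor Robo1 were both higher. Slit2, a secreted protein that restrains leukocyte migration, read -1.34, -1.11, -1.42, -1.07 and -0.94 in sham and -0.23, -0.12, 0.57, -0.20 and 0.36 in PPE aortas. The lowest PPE value lay above the highest sham value, and the log2 fold change was 1.25 ± 0.18 (adjusted p 0.000202 by limma). Robo1 read 0.96, 0.76, 0.62, 0.78 and 0.77 and then 1.12, 1.92, 1.70, 1.35 and 1.26. The groups did not overlap, and the log2 fold change was 0.69 ± 0.15 (adjusted p 0.00452), which rose to at most 0.0143 without sham 2, sham 3, sham 4 or PPE 3. Slit3 read 1.56, 1.55, 1.02, 1.59 and 1.44 and then 1.37, 1.32, 0.93, 1.11 and 1.13, and Slit1 -0.066, 0.080, 0.24, 0.15 and -0.12 and then 0.17, -0.037, -0.097, 0.082 and -0.031. Neither passed, at -0.26 ± 0.14 and -0.039 ± 0.11. On the PPE arrays 4 of 8 fibroblast markers were higher, and so were most macrophage, neutrophil and T cell markers. The part of these cells in the values of Slit2 and Robo1 was not tested.

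Of 10 further receptors and relatives of the netrin and Slit systems tested, 2 were higher and 1 lower, with a median of 0.54. Flrt3, a ligand of Unc5 receptors, was higher by 1.33, and Gpc1, a heparan sulphate proteoglycan that binds Slit, by 0.98. Rgma, a ligand of neogenin, was lower (-0.92). Among 21 effectors of the Eph, ephrin, netrin and Slit receptors, 5 were higher and 3 lower, with a median of 0.16. Beside these 2 lists, 13.9% of all genes were higher and 9.96% lower, and the counts were not tested against that. Higher were Adam10 (1.19), a protease that sheds ephrins, the exchange factor Vav3 (1.11), the kinase Fyn (1.04), the Robo-binding Srgap2 (0.86) and the adaptor Nck1 (0.60). Lower were Ngef (-2.22), the exchange factor ephexin that sits on EphA receptors, the actin-binding Ablim1 (-0.77), and the netrin-pathway exchange factor Trio (-0.69). Under median centring Trio was at 0.004, beside a median of 0.41 for all genes.

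**Figure D4:**
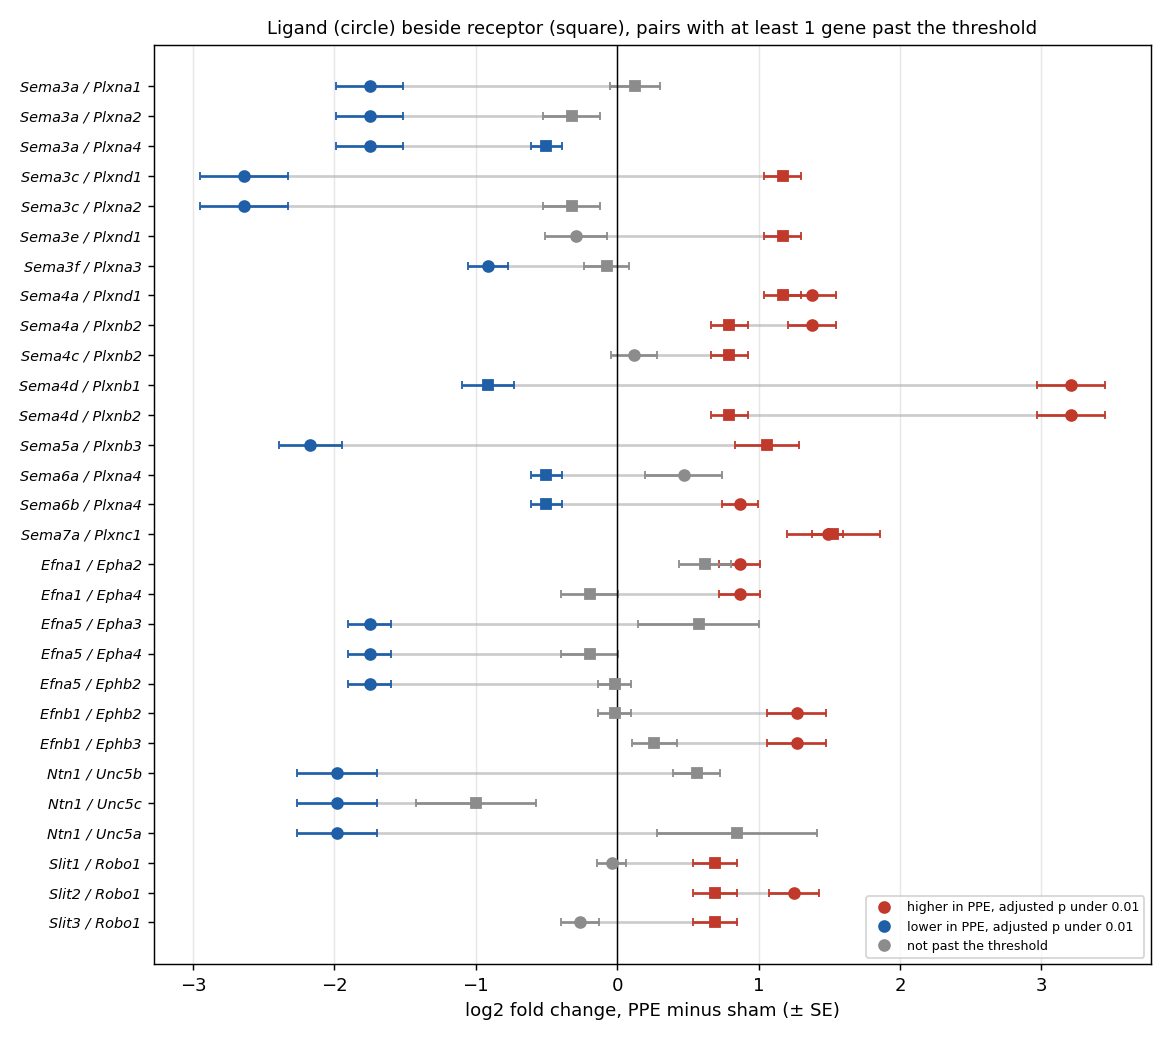
Log2 fold change of PPE over sham (horizontal axis, ± SE) of a ligand (circle) and its receptor (square). Shown are the 29 listed pairs in which both genes were tested and at least 1 passed, from a list without Ephb1, Epha1 and Ephb6. In 5 pairs both were higher, in 1 both were lower, in 4 they went opposite ways and in 19 only 1 passed. Pairs share genes. Plxna4, in 3 pairs, was at 0.13 under median centring, beside a median of 0.41 for all genes.

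Read as one set of listed ligand and receptor pairs, 5 pairs had both genes higher. They were Slit2 with Robo1, Sema7a with Plxnc1, Sema4a with Plxnd1, Sema4a with Plxnb2 and Sema4d with Plxnb2. The calls of Plxnc1 and Robo1 in these pairs each depended on single arrays, as given above. With the slide as a block (slides 1 and 2 only), Plxnc1, Robo1 and Ephb6 did not pass (adjusted p of 0.0212, 0.028 and 0.0245). All 24 genes that passed kept their sign within slide 1 (1 sham and 2 PPE arrays) and within slide 2 (2 and 2).

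The sequence before the transcription start was looked at for short motifs of factors known from inflammation and from smooth muscle, over the 250 bases before each RefSeq start on GRCm38. Of the 65 genes, 56 had at least 1 such sequence, 72 in all. The motif list was written after the fold changes were known, and a match is letters only. GAGGAAG, the core bound by the myeloid factor PU.1, was found on either strand in 10.6% of 32851 mouse sequences of this length. It was present before 6 of the 13 genes that were higher (Efna1, Plxnb3, Plxnc1, Plxnd1, Sema4a and Sema6b; 6 of their 21 sequences), 6 of the 31 that did not pass (7 of 37) and 0 of the 8 lower genes with a sequence (0 of 8). Genes with several starts had more chances to hold it. TGANTCA (AP-1, 6.7% of all sequences) was before 2 of the 13 higher genes (Sema4d and Sema6b) and 1 of the 31 that did not pass (Sema4c). CAGCTG (E-box of Twist and MyoD type, 13.0%) was before 3 higher genes (Plxnb3, Sema4d and Sema7a) and 5 that did not pass (Epha10, Ephb3, Sema3g, Sema4g and Sema6c). The NF-kB motif (3.9%) was before 2 (Ephb1 and Sema4a) and 2 (Ephb2 and Sema4c), the CArG box of serum response factor (1.5%) before 2 (Robo1 and Sema4d) and 0, and TTCNNNGAA (STAT, 7.0%) before 0 and 2 (Efna3 and Epha3). These 5 motifs were before 0 of the 8 lower genes.

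Of these sequences, 4 follow, 5′ to 3′ on the gene's strand, with motif matches in capitals and none overlapping another. Plxnc1 and Plxnd1 each hold 2 PU.1 matches, 166 and 154, and 204 and 181 bases before the start. One of the 4 listed starts of Sema4a holds an NF-kB match 173 bases and a PU.1 match 77 bases before it. Sema3c, a gene that was lower, holds no match and is rich in G and C (78.4%, against a median of 52.4% over all the sequences). Sequences of the lower genes ran from 40.8% (Sema3a) to this value, and those of the higher genes from 52.0% (Sema4d) to 69.6% (Slit2).
Plxnc1, chr10:94944846-94945095, minus strand: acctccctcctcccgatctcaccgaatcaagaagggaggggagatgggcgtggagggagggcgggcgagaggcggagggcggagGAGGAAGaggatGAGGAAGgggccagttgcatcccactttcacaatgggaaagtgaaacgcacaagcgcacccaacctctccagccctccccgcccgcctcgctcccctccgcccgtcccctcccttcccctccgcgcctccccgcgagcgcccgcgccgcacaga
Plxnd1, chr6:115995006-115995255, minus strand: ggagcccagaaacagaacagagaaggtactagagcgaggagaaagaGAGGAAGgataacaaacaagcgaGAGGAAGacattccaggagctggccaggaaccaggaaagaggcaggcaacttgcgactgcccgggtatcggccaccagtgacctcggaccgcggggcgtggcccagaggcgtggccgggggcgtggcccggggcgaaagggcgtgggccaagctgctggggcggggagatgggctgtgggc
Sema4a, chr3:88459102-88459351, minus strand: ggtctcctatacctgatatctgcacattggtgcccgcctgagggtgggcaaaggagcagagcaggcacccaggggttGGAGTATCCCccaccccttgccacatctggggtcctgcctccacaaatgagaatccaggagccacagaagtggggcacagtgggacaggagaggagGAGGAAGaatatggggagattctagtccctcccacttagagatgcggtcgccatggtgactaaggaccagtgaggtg
Sema3c, chr5:17574566-17574815, plus strand: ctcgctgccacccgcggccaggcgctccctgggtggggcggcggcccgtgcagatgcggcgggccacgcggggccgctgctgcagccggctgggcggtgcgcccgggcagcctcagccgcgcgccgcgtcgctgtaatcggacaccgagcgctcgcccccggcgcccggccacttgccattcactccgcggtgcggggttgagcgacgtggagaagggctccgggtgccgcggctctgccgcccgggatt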

How the data were processed

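Per the labels and the study's methods, arrays were 2-colour Agilent mouse arrays with 500 ng of aortic RNA (Cy5) against a universal mouse reference (Cy3), 5 sham and 5 PPE, with no dye swap. The authors left out arrays with poor hybridization and outliers in clustering, and which ones is not given in the sources used here. The deposited spot signals and backgrounds are a linear intensity from Agilent Feature Extraction 10.7.3.1, the deposited LogRatio is a log10 ratio, and the authors' series matrix holds log2 ratios of the processed signals. The last 2 served as alternatives.

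Mean signals were background-corrected by normexp (offset 50) and normalized by loess within arrays (limma 3.58.1, R 4.3.3). Ratios of dim probes are pulled towards 0 by this offset. Control and outlier spots were left out and spots of a probe averaged. Probes entered the test with a red signal flagged well above background by the scanner software on 5 or more of the 10 arrays, and a gene is its brightest tested probe. Groups were compared with limma, two-sided and unpaired, Benjamini-Hochberg over all genes, at an adjusted p under 0.01. The study's SAM test was not run. The fitting script was tested on simulated data. The number of arrays limits the precision. Per the labels, aortic RNA was not pooled.

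All 24 genes that passed and the tested partners paired with them are given with their values on each array. Robo2, paired with Slit2, was not tested. The genes, lists, pairs and tests were chosen with earlier results of these data known. Replicate numbers of the labels did not pair the arrays, as their deviations from the group means correlated between -0.30 and 0.52. Slides 1 and 2 held both groups, and slides 3, 4 and 5 held 1 array each. A fit with the slide as a block thus gave sham 4, sham 5 and PPE 5 no weight. Sequences are RefSeq's (GRCm38) and were found by symbol for 56 of the 65 genes. Exons and UTRs on mm9 were not looked up.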

Additional observations from a re-analysis of the deposited data

Results flagged for a closer look

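In 5 of the 120 groups of 5 arrays (60 genes, 2 groups each), 1 array stood apart from the other 4 by more than Dixon's 95% limit, and chance flags about 1 group in 20. Sema5a read 0.91 on PPE 2, with the next PPE array at 0.017. Efna3 read 0.46 on PPE 5, with the next at -0.28, and Epha5 read 2.46 on PPE 5, with the next at 1.73. Sema6d read 0.87 on sham 3, with the next at 1.34, and Slit3 read 1.03 on sham 3, with the next at 1.44. Of these genes only Sema5a passed the threshold, and without PPE 2 its log2 fold change stayed at or below -2.07, as it did when any other array was left out.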

How the results depend on the processing

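The 24 calls were recomputed under each alternative. Median centring in place of loess left 1 gene higher (Sema4d) and 0 lower (limma, with 16 and 4 at an unadjusted p under 0.05). Over all 22520 gene names it left 408 higher and 8 lower, against 3122 and 2244 with loess. The median of the 60 genes was then 0.39, beside 0.41 for all genes. Under median centring the signs of Plxna4 (0.13) and Trio (0.00384) changed, and the cause was not tested. Relative to the median of all genes under that setting, Plxna4 was at -0.28 and so kept its sign. Leaving out 1 array at a time gave 9 to 13 higher and 9 to 12 lower genes and a median between -0.0136 and 0.15, lowest without PPE 5. The Agilent LogRatio and the series matrix each gave 10 higher and 15 lower genes, and requiring signal on all 10 arrays gave 9 and 11 of 42 genes tested. Over all genes the LogRatio gave 3164 and 3089, the series matrix 3167 and 3093, and signal on all 10 arrays 2425 and 2072 of 15261. No other alternative moved either count by over 1.5 times, and scaling between arrays (Aquantile) leaves these ratios as they are. With the replicate number as a block, 13 genes were higher and 10 lower, with Ephb6, Plxna4 and Robo1 lost and Epha2 and Unc5c gained. The numbers do not pair the arrays, since same-numbered arrays correlated at 0.29, -0.30, 0.16, -0.14 and 0.52. Without sham 5 and PPE 5, an alternative chosen after seeing the data, 13 were higher and 11 lower, with Ephb6 lost and Unc5c gained. With the slide as a block, 12 were higher and 10 lower, with Ephb6, Plxnb1, Plxnc1 and Robo1 lost and Epha2 and Unc5c gained. That fit compared arrays only within slides 1 and 2. Dim probes, such as those of Ephb1 and the second probes of Plxnc1 and Ntn1, limit the fold changes that could be measured.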
